A study of Bos taurus with 12 samples.

Results

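Aminoacyl-tRNA synthetases join each amino acid to its tRNA. They were examined in chondrocytes, the cartilage cells of the growth plate. The enzymes were chosen by name, as 34 listed cytosolic and mitochondrial synthetases, and every probe set (the group of array probes read as 1 value) that the platform annotation assigns to one of them was used. Of the 34 genes, 28 were measured, by 38 of 24016 non-control probe sets. They comprised 16 of 19 cytosolic genes with 24 probe sets and 12 of 15 mitochondrial genes with 14 probe sets. FARSA, FARSB, VARS1, EARS2, PARS2 and YARS2 had no probe set under their names and were not analysed here.

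The cells came from the distal metacarpal growth plates of male dairy cattle under 10 months of age, with no treatment other than a collagenase digestion of 4 hours. They were parted by density into a light fraction, labelled hypertrophic zone (HZ), and a dense fraction, labelled reserve zone (RZ). Total RNA of 6 HZ and 6 RZ samples, in 6 numbered pairs, was read on 12 one-colour arrays. The labels do not say whether a pair came from 1 animal or from several. The p-values below reflect how much the pairs varied, with precision limited by the number of arrays. In limma the spread of each probe set is also drawn toward that of all probe sets, which changes its SE and p. A density fraction is not a pure cell type, and in such bulk samples fewer cells of a type and less RNA per cell cannot be told apart.

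Each synthetase recognises 1 amino acid, apart from EPRS1, which carries the activities for glutamate and proline in 1 protein. Cytosolic enzymes serve protein synthesis in the cytosol, including that of secreted cartilage collagens, and 7 of the measured ones (EPRS1, IARS1, KARS1, LARS1, MARS1, QARS1 and RARS1) sit in the multisynthetase complex, held together by the scaffold proteins AIMP1, AIMP2 and EEF1E1. A separate set of nuclear genes encodes the enzymes that charge tRNAs inside mitochondria, although GARS1 and KARS1 serve both compartments. Many cytosolic synthetase genes are known targets of ATF4, a transcription factor that is made when amino acids run short or the endoplasmic reticulum is stressed.

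The zone labels were set against marker genes. Here and below a gene is said to rise or fall in HZ where its limma adjusted p was under 0.05. Of named genes 4.17% rose by this rule and 3.56% fell. Among 10 measured hypertrophic zone markers 6 rose in HZ, and among 5 reserve zone markers 4 fell, while the hypertrophic collagen COL10A1 did not pass, at a log2 difference of 0.11 ± 0.16 (SE, limma adjusted p = 0.755). Chondrocyte markers summed to 103282 to 172061 signal units in HZ and 94112 to 185711 in RZ, and MATN1, a cartilage matrix protein, was the 1 of 9 that fell (its other probe set, at -0.48, did not pass). Of the 11 measured macrophage and osteoclast markers 8 rose in HZ, with summed signals of 9402 to 12079 in HZ and 3518 to 8830 in RZ. Lymphocyte markers summed to 318 to 551 in HZ and 529 to 1408 in RZ, with GZMB, CD79A and MS4A1 under 100 on every array, and 3 of 10 fell. Among 9 markers of fibroblasts, perichondrium and bone, which summed to 13979 to 19213 in HZ and 16771 to 34363 in RZ, FBN1 and PDGFRA fell (the other PDGFRA probe sets, at 0.09 and 0.14, did not pass), and POSTN was under 100 on every array. Granulocyte markers summed to 556 to 2453 in HZ and 717 to 12015 in RZ, with CATHL1 the 1 of 11 that fell. Endothelial markers summed to 264 to 622 in HZ and 559 to 838 in RZ, with 5 of 8 under 100 on every array and PECAM1 falling. Of 7 erythroid markers 6 were under 100 on every array, and the sums overlapped, at 111 to 246 and 131 to 294. The log2 ratio of 3′ to 5′ actin control probes, which rises with RNA degradation, averaged 3.03 in HZ (SD 0.685) and 2.34 in RZ (SD 0.453) over 6 arrays each, and within pairs HZ was higher in 5 of 6, by up to 1.55 (exact sign-flip p = 0.0625). The same ratio for GAPDH averaged 0.519 in HZ (SD 0.651) and 0.103 in RZ (SD 0.285). It was higher in HZ in 5 of 6 pairs, by up to 1.27 (exact sign-flip p = 0.125). The part of the marker genes that passed, and of the actin and GAPDH ratios, in the differences below was not tested.

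The comparison of HZ with RZ asks which synthetase transcripts differ between the light and the dense fraction. Transcripts of 4 cytosolic enzymes fell in HZ, those of CARS1, MARS1, SARS1 and GARS1, which charge the tRNAs of cysteine, methionine, serine and glycine. Transcripts of 1 mitochondrial enzyme, MARS2 for methionine, rose. The other 23 measured genes did not pass. A gene passed when its adjusted p was under 0.05, from limma with the pair as a block and Benjamini-Hochberg adjustment over all 24016 probe sets. Each gene was read from its probe set with the highest mean signal. By the same rule 3.56% of the 9155 named genes passed as lower and 4.17% as higher, and of all probe sets 2.96% and 3.26%. Signals are in the arrays' own units, recovered from the deposited ratios, and differences are on the scale of log2(signal + 16), which understates changes of dim probe sets.

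**Figure D1:**
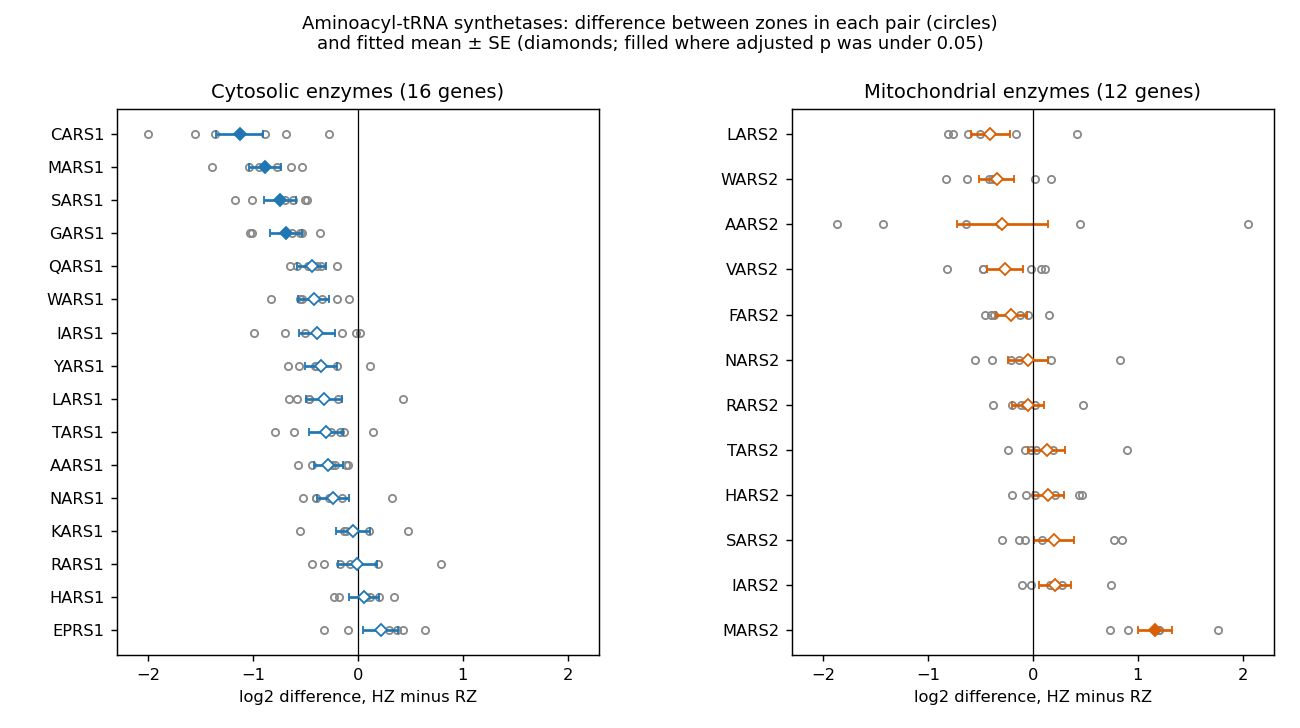
Log2 difference between zones (HZ minus RZ) of the 16 cytosolic and 12 mitochondrial synthetase genes. Circles are the 6 pairs, diamonds the fitted mean with its standard error, filled for the 5 genes that passed; CARS1, MARS1, SARS1 and GARS1 lie below 0 in every pair and MARS2 lies above 0 in every pair.

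The methionine enzymes moved in opposite directions. MARS1, the cytosolic methionyl-tRNA synthetase, also charges the initiator tRNA with which translation of every cytosolic protein starts. From pair 1 to pair 6 its HZ signal was 470, 227, 503, 439, 525 and 475, against 923, 621, 868, 919, 769 and 750 in RZ. All HZ arrays were below all RZ arrays, with HZ-2 far below the other HZ arrays. The mean of 6 arrays was 808 ± 118 (SD) in RZ but 440 ± 108 in HZ, a fall of 0.89 ± 0.16 on the log2 scale (SE, limma adjusted p = 0.0125), lower in 6 of 6 pairs. The fall was 1.85-fold in linear terms. A second MARS1 probe set, dim at 13.1 to 138 signal units, gave -0.17 ± 0.20 (SE, limma adjusted p = 0.680), with 3 pairs lower and 3 higher.

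MARS2, the mitochondrial methionyl-tRNA synthetase, was the 1 synthetase of either compartment that rose. Its HZ signal was 270, 247, 384, 242, 375 and 644 from pair 1 to pair 6, against RZ values of 137, 98.7, 162, 139, 154 and 178. All HZ arrays lay above all RZ arrays, and HZ-6 was the highest. Its mean went from 145 ± 27.4 (SD) in RZ to 360 ± 152 in HZ over 6 arrays each, a log2 difference of 1.16 ± 0.16 (SE, limma adjusted p = 0.00569) or 2.24-fold, higher in 6 of 6 pairs, where 8.60% of named genes were. MARS2 is read from a single probe set, so no other probe set tests it. MARS1 and MARS2 were the 2 of 28 genes whose zones did not overlap, against 3.86% of named genes.

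SARS1 charges serine tRNAs and also the tRNA on which selenocysteine is made. Its signal had a lowest, median and highest value of 1002, 1327 and 1587 in HZ and 1483, 2004 and 3230 in RZ. The zones overlapped only in that HZ-1 lay above RZ-5. The log2 difference was -0.75 ± 0.15 (SE, limma adjusted p = 0.0219), lower in 6 of 6 pairs.

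GARS1 charges glycine tRNAs in the cytosol and in mitochondria. Glycine is the most frequent residue of collagen helices. The signal had a lowest, median and highest value of 2206, 3231 and 4813 in HZ and 3705, 4835 and 7996 in RZ. HZ-1 and HZ-4 lay within the range of the RZ arrays, yet each was below the RZ array of its own pair. The log2 difference was -0.69 ± 0.15 (SE, limma adjusted p = 0.0287), lower in 6 of 6 pairs.

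CARS1, the cytosolic cysteinyl-tRNA synthetase, had the largest fall of the 4 genes that fell, as read from its brightest probe set over all 6 pairs. By pair, from 1 to 6, the HZ signal was 106, 35.0, 36.9, 73.5, 81.7 and 139 and the RZ signal 181, 45.7, 196, 247, 235 and 270. The array RZ-2 was the exception, lying below 4 of the HZ arrays. The log2 difference was -1.13 ± 0.22 (SE, limma adjusted p = 0.0201), lower in 6 of 6 pairs. The first 2 pairs averaged -0.48, the later 4 -1.45. A second, dimmer CARS1 probe set, with medians of 10.7 in HZ and 10.9 in RZ, gave -0.21 ± 0.21 (SE, limma adjusted p = 0.629). The mean of all CARS1 probe sets gave -0.67 and did not pass (limma adjusted p = 0.0634).

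**Figure D2:**
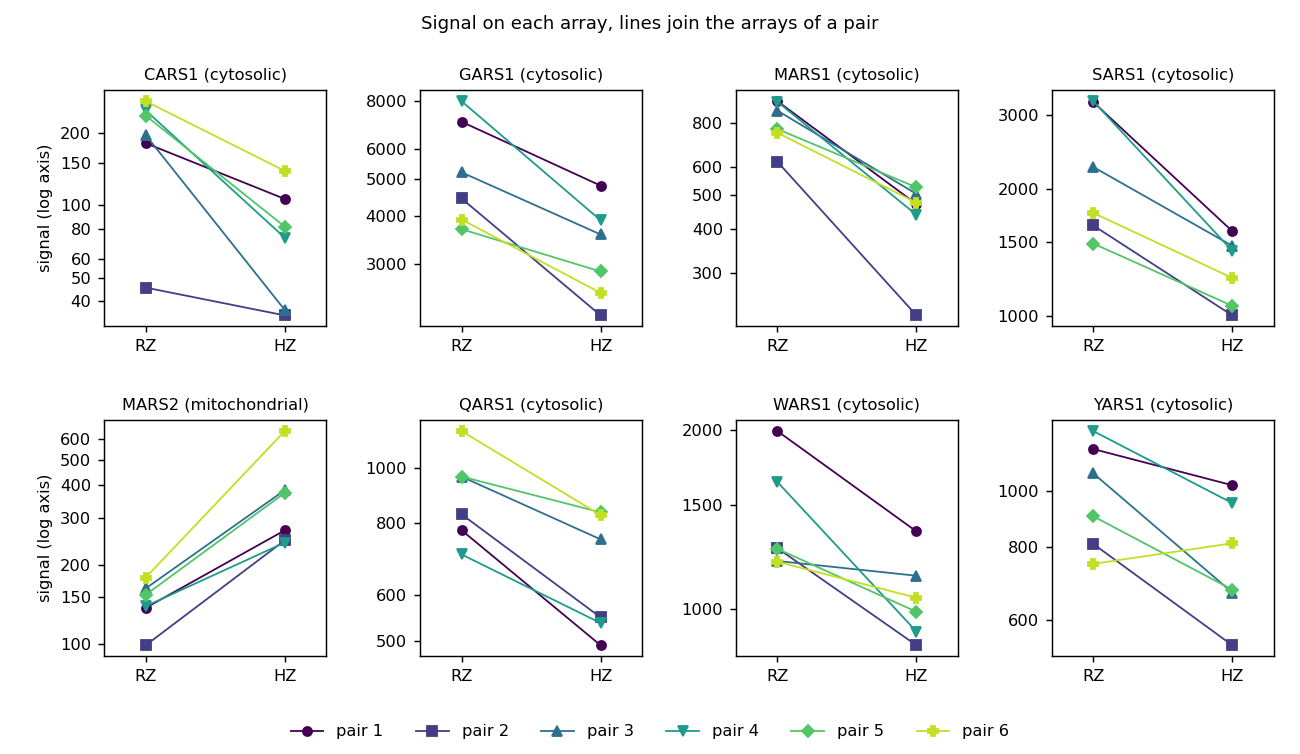
Signal on each array, on log axes that differ between panels, for the 5 synthetase genes that passed and for QARS1, WARS1 and YARS1, the 3 with the next smallest p. Lines join the RZ and HZ arrays of a pair; lines of the 4 cytosolic genes that passed all run downward and those of MARS2 all run upward.

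Not all of these calls were equally firm. MARS1 and MARS2 passed in all 6 fits that left out a pair (limma adjusted p of 0.0255 to 0.0456 and 0.0152 to 0.0281). CARS1 passed in 4 of them, not without pair 4 or pair 5, and SARS1 in 3, not without pair 1, 4 or 5. GARS1 passed in 1, that without pair 3, with an adjusted p of up to 0.0898 in the others. The number of genes called was 3 without pair 1 and 2 without pair 4 or pair 5. Without the pair as a block MARS1 and MARS2 passed and the other 3 did not. The arrays of pairs 1 and 2 stood apart from those of pairs 3 to 6 in the step size of the deposited values. Within pairs 1 and 2 and within pairs 3 to 6, MARS1 gave -1.17 and -0.75, SARS1 -0.86 and -0.70, GARS1 -0.78 and -0.64 and MARS2 1.05 and 1.22. Tested for whether the zone difference itself differed between these groups of pairs, none of the 28 genes passed (lowest limma adjusted p = 0.934), and CARS1 was the 1 with an unadjusted p under 0.05.

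Of the 12 cytosolic genes that did not pass, 10 had a difference below 0. QARS1, which charges glutamine and for which no mitochondrial counterpart exists in animals, had a lowest, median and highest signal of 491, 650 and 837 in HZ and 707, 898 and 1159 in RZ. It was lower in 6 of 6 pairs, although the zones overlapped, and gave -0.44 ± 0.14 (SE, limma adjusted p = 0.0896). It passed when 64 was added in place of 16 and when dim probe sets were left out.

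WARS1, the tryptophan enzyme, which interferon is known to induce, had 4 probe sets. The brightest had a lowest, median and highest signal of 869, 1017 and 1351 in HZ and 1201, 1265 and 1995 in RZ, with overlap between the zones and a lower value in HZ in 6 of 6 pairs. It gave -0.42 ± 0.15 (SE, limma adjusted p = 0.132), and the other 3 gave -0.42, -0.27 and -0.10. YARS1, the tyrosine enzyme, had 544, 745 and 1022 in HZ and 750, 988 and 1266 in RZ and was lower in 5 of 6 pairs, with HZ-6 above its partner. Its difference was -0.35 ± 0.15 (SE, limma adjusted p = 0.205).

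Within the multisynthetase complex, MARS1 fell and the other 6 enzymes did not pass. After QARS1, isoleucine's IARS1 gave -0.39 ± 0.17 (SE, limma adjusted p = 0.225) and leucine's LARS1, which also senses leucine for the growth kinase mTORC1, gave -0.32 ± 0.17 (SE, adjusted p = 0.310). KARS1 for lysine, RARS1 for arginine and EPRS1 for glutamate and proline stood at -0.05, -0.01 and 0.22. The second RARS1 probe set gave -0.08. EPRS1 was higher in HZ in 4 of 6 pairs, with signals of 2367 to 6203 in HZ and 2966 to 4661 in RZ, so the range of HZ enclosed that of RZ. The median over the 7 genes was -0.32. Of the scaffold proteins, AIMP1 gave 0.10 ± 0.16, AIMP2 -0.20 ± 0.14 and EEF1E1 -0.25 ± 0.18 (SE), and none passed.

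Outside the complex, 3 of 9 cytosolic enzymes fell and the median was -0.35. The threonine enzyme TARS1 gave -0.30, the alanine enzyme AARS1 -0.28, the asparagine enzyme NARS1 -0.24 and the histidine enzyme HARS1 0.05, none of which passed. AARS1 was lower in 6 of 6 pairs, TARS1 and NARS1 in 5. The dimmer NARS1 probe sets gave -0.30 and 0.25. In all, 7 of 16 cytosolic genes were lower in every pair, where 8.27% of named genes were. Unadjusted p was under 0.05 for 8 of 16, all lower in HZ, where 12.6% of named genes were lower at that level.

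The mitochondrial enzymes were divided in sign. Of 12 genes, MARS2 rose, none fell, and 7 lay below 0 and 5 above. LARS2 for leucine gave -0.41 ± 0.19 (SE, limma adjusted p = 0.239), with signals of 45.4 to 131 in HZ and 71.2 to 160 in RZ. WARS2 for tryptophan gave -0.35, VARS2 for valine -0.27, FARS2 for phenylalanine -0.21, and NARS2 and RARS2 -0.05 and -0.04. IARS2 for isoleucine gave 0.21, SARS2 for serine 0.20, HARS2 for histidine 0.15 and TARS2 for threonine 0.13.

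AARS2, the mitochondrial alanine enzyme, had the widest spread, with -0.29 ± 0.43 (SE) and pair differences from -1.87 to 2.05. Its brighter probe set was dim, with medians of 32.6 in HZ and 62.4 in RZ, and HZ-5 stood alone at 224. The other was at 2.38 to 6.26 on all arrays. The second TARS2 probe set was also dim and gave 0.09. Outside the listed genes, the mitochondrial cysteine enzyme CARS2 gave -0.34 ± 0.14 (SE, limma adjusted p = 0.204), lower in 5 of 6 pairs. It belongs to a list of 7 measured synthetase-related genes, which ran from -0.34 to 0.68 with a median of 0.25 and 4 above 0.

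Cytosolic and mitochondrial enzymes are set side by side by their medians. The median log2 difference was -0.34 over the 16 cytosolic genes and -0.05 over the 12 mitochondrial genes, against -0.01 over all named genes. Of the cytosolic genes 14 lay below 0 and of the mitochondrial genes 7, where 51.1% of named genes did. After quantile normalization 12 and 7 did. The groups also differ in brightness, with mean RZ signals of 196 (CARS1) to 5791 (TARS1) among cytosolic genes and 71.5 (AARS2) to 669 (IARS2) among mitochondrial genes. The part of signal level in this contrast, and in those for the same amino acid below, was not tested. In pairs 1 to 6 the cytosolic median was -0.37, -0.57, -0.03, -0.57, -0.20 and -0.19, and the mitochondrial median was -0.07, -0.10, 0.16, -0.29, -0.05 and 0.02. The cytosolic median was thus the lower in 6 of 6 pairs. In the same pairs the median of all named genes was 0.02, -0.13, 0.18, -0.09, 0.04 and -0.07, so that pair 3, where 8 of 16 cytosolic genes were higher in HZ, was also the pair with the highest general median. In pair 2 all 16 cytosolic genes were lower in HZ, and in pair 4 there were 15. The members were picked by name with results of these data known, so these medians are a description without a test.

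**Figure D3:**
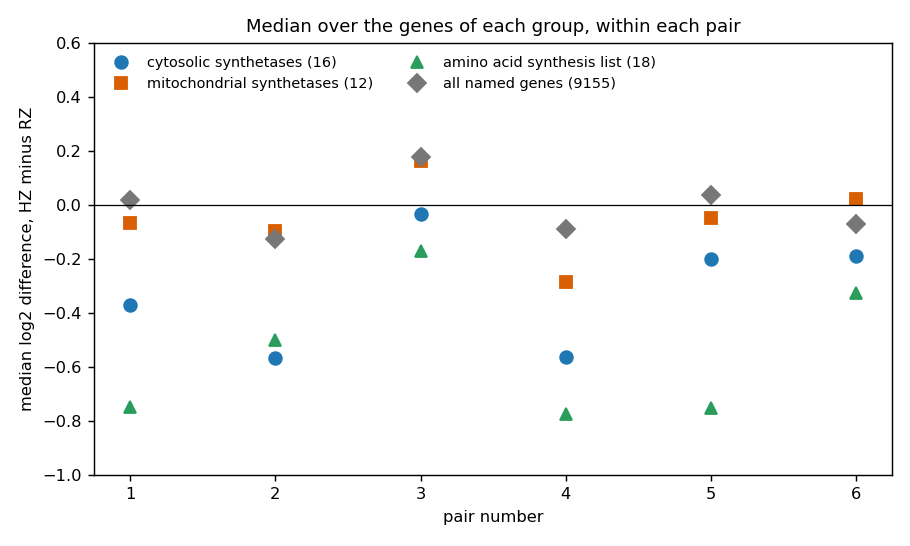
Median log2 difference between zones (HZ minus RZ) within each of the 6 pairs, for the 16 cytosolic synthetases, the 12 mitochondrial synthetases, the 18 genes of the amino acid synthesis list and all 9155 named genes. The cytosolic median lies below the mitochondrial one and below that of all named genes in each pair.

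Among the listed genes, both the cytosolic and the mitochondrial enzyme were measured for 10 amino acids. The zone difference of the cytosolic enzyme was subtracted from that of the mitochondrial enzyme within each pair. Enzymes outside the listed genes, such as CARS2 for cysteine, were not compared. For methionine the difference of MARS2 exceeded that of MARS1 by 2.05 ± 0.15 (SE, n = 6 pairs), from 1.74 to 2.59. For serine SARS2 exceeded SARS1 by 0.95 ± 0.31, and for isoleucine IARS2 exceeded IARS1 by 0.60 ± 0.09. All 3 were above 0 in 6 of 6 pairs, which gives an exact two-sided sign-flip p of 0.03125, the smallest possible with 6 pairs, and an adjusted p of 0.104 over the 10 comparisons. These 3 did not pass, and with only 3 of 10 comparisons at that smallest p none could, whatever the size of its offset.

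The other 7 amino acids compared showed smaller or less even offsets. TARS2 exceeded TARS1 by 0.43 ± 0.23 (SE, exact p = 0.15625, adjusted p = 0.391) in 5 of 6 pairs. The offsets for asparagine, histidine, tryptophan, alanine, arginine and leucine lay between -0.08 and 0.19, and each was above 0 in 3 or 4 of 6 pairs. The genes HARS1 and HARS2, which charge the same amino acid, are direct neighbours among the coding genes of the RefSeq assembly ARS-UCD2.0, and neither passed, at 0.05 and 0.15. EPRS1 and IARS2 are parted there by 1 coding gene, BPNT1, and stood at 0.22 and 0.21.

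**Figure D4:**
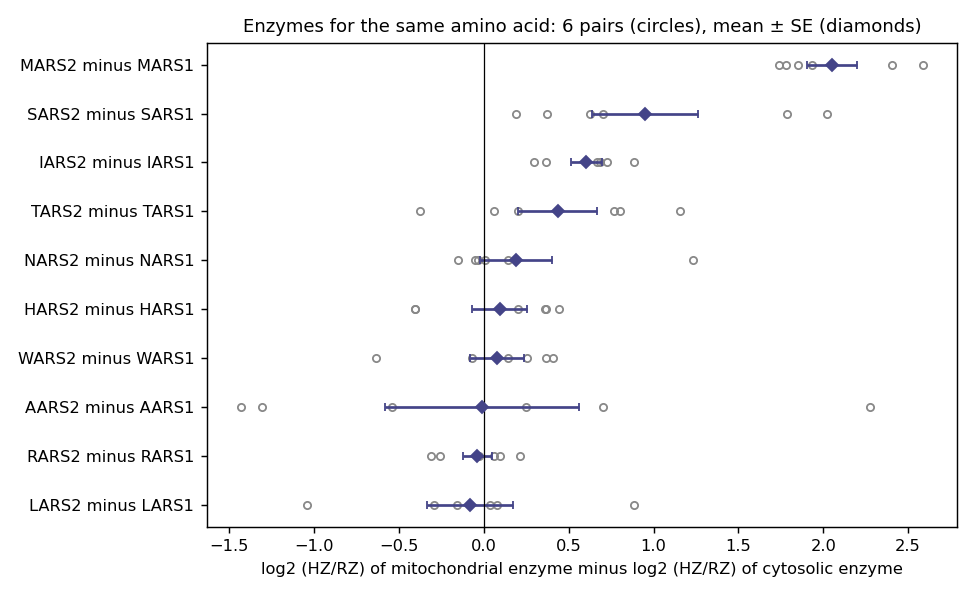
For 10 amino acids, the zone difference (log2, HZ minus RZ) of the mitochondrial enzyme minus that of the cytosolic enzyme. Circles are the 6 pairs and diamonds the mean with its standard error; MARS2 minus MARS1 lies between 1.74 and 2.59, and the pairs for serine and isoleucine are also all above 0.

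The supply of amino acids was read from lists chosen around tRNA charging. One list covers synthesis of serine, glycine, proline, asparagine and related amino acids, and also holds one-carbon enzymes such as MTHFD1L. The asparagine synthetase ASNS had no probe set. In this list 8 of 18 measured genes fell, 0 rose and 10 did not pass, with a median of -0.59. Of all named genes, 3.56% passed as lower and 4.17% as higher. MTHFD1L, a mitochondrial enzyme that turns one-carbon units derived from serine and glycine into formate, fell by 1.31 ± 0.17 (SE, limma adjusted p = 0.0045), with signals of 554 to 1307 in HZ and 1616 to 3407 in RZ. PSAT1 and PHGDH, steps of serine synthesis, fell by 1.14 ± 0.22 and 0.86 ± 0.17 (SE, limma adjusted p = 0.0171 and 0.0189), and GPT2, which makes alanine, fell by 0.75 ± 0.14 (SE, adjusted p = 0.0177). Each of these was lower in 6 of 6 pairs, and both other PSAT1 probe sets also fell. MTHFD1L passed in all 6 fits that left out a pair, PSAT1 in 4, and PHGDH and GPT2 in 3 each. The number of genes that passed in this list was 2 without pair 1, 5 without pair 2, 1 without pair 4 or pair 5, 3 without the pair as a block, 2 with 1 added in place of 16 and 1 on the deposited ratios.

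Of 13 amino acid transporters, 2 fell, 0 rose and 11 did not pass, with a median of -0.44. The shares of named genes were 3.56% lower and 4.17% higher. SLC3A2, the heavy chain that brings several amino acid exchangers to the cell surface, fell by 0.93 ± 0.14 (SE, limma adjusted p = 0.00734), with signals of 1577 to 3105 in HZ and 3215 to 7346 in RZ. SLC38A3, a glutamine transporter, fell by 0.84 ± 0.18 (SE, adjusted p = 0.0254), while its other probe sets, at -0.23 and -0.88, did not pass. SLC3A2 passed in all 6 fits that left out a pair, and SLC38A3 in 2, those without pair 1 or 3. SLC7A5, a partner of SLC3A2 that carries leucine and methionine, gave -0.67 ± 0.19 (SE, adjusted p = 0.0726); it was chosen for mention after its value was seen.

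In the list of the ATF4 pathway and the response to amino acid shortage, 3 of 21 genes fell, 2 rose and 16 did not pass, with a median of -0.29. By the same rule 3.56% of named genes fell and 4.17% rose. The transcription factor ATF5 fell by 1.42 ± 0.15 (SE, limma adjusted p = 0.00175), with signals of 78.4 to 183 in HZ and 295 to 549 in RZ. SESN2, a leucine sensor that restrains mTORC1, fell by 0.97 ± 0.15, and TRIB3, a pseudokinase that ATF4 induces, by 0.92 ± 0.15 (SE, adjusted p = 0.00774 and 0.010). A further SESN2 probe set also fell, at -1.19, while another, at -0.87, did not pass. In the other direction, GADD45A, a growth arrest gene, rose by 1.28 ± 0.17 and NUPR1, a stress-induced chromatin protein, by 1.06 ± 0.21 (SE, adjusted p = 0.00495 and 0.0184). ATF4 itself was at 7154 to 9636 in HZ and 9868 to 12499 in RZ, without overlap, and gave -0.34 ± 0.14 (SE, adjusted p = 0.175), lower in 6 of 6 pairs. DDIT3, which acts with ATF4 under stress, gave -0.03, and XPOT, which exports tRNAs from the nucleus, gave -0.46 ± 0.21 and -0.48 at its 2 probe sets. None of these 3 genes passed. ATF5, SESN2, TRIB3 and GADD45A passed in all 6 fits that left out a pair, NUPR1 in 3, not without pair 1, 4 or 5. Without the pair as a block NUPR1 and ATF5 passed and the other 3 did not.

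**Figure D5:**
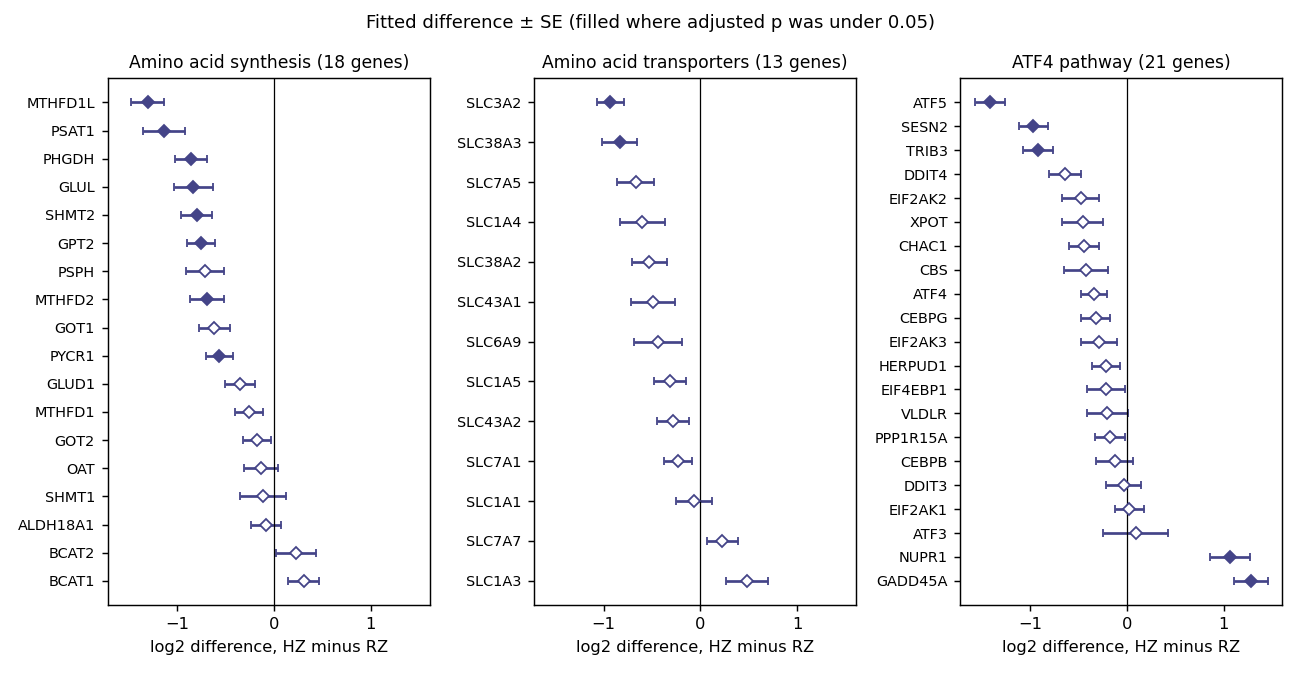
Fitted log2 difference between zones (HZ minus RZ) with its standard error for the 18 genes of the amino acid synthesis list, 13 amino acid transporters and 21 genes of the ATF4 pathway list. Filled diamonds passed at an adjusted p under 0.05: 8 lower, 2 lower, and 3 lower with 2 higher.

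The next steps of translation were read from further lists. Of all named genes 3.56% passed as lower and 4.17% as higher, so counts near 0 in lists this small say little. None of 9 genes for the multisynthetase scaffold and elongation factors passed (limma, 0 also with an unadjusted p under 0.05; median 0.00). Among 28 cytosolic initiation factors none passed, 5 had an unadjusted p under 0.05, all lower in HZ, and the median was -0.09. Of named genes 12.6% were lower at that level. With 64 added in place of 16, 2 of the 28 passed, both lower in HZ. None of 14 mitochondrial translation factors passed, with 0 at an unadjusted p under 0.05 and a median of 0.01.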

How the data were processed

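Biotin-labelled cRNA was hybridised to 1-colour arrays. Per the labels' protocols, RNA STAT-60 served for extraction and a MessageAmp II-Biotin kit for labelling. How arrays were scanned, summarised and normalized is not given in the sources used here. The authors deposited a linear ratio per probe set and array. Ratios of each array fell on whole multiples of a step, from which the signal of 24127 of 24128 probe sets was recovered (the 1 unsolved is a control; largest distance 0.0575 of a step), taking 1 step as 0.1 signal units, which no source states.

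The comparison ran in R 4.3.3 with limma 3.58.1 on log2(signal + 16), pair as block, over 24016 probe sets; scripts were tested on simulated data. Deviations from the zone mean correlated between arrays of the same number (0.124 to 0.447, each over 0.1), and the series description calls them pairs. Arrays of different numbers were not compared, so these correlations do not test the pairing. Names came from the platform annotation: 1 symbol for 13292 probe sets, several for 86, none for 10638. A gene was read from its probe set with the highest mean.

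Members and lists were chosen with earlier results of these data known. Named were all members, with values by array for those that passed and the next by p until 8 genes, and at most 4 passing genes of each other list plus ATF4, DDIT3, XPOT and the scaffold proteins (ASNS, also named, has no probe set); NUPR1, SLC7A5 and the marker genes named were added after their values were seen. CARS2, which did not pass, was also named outside this rule. A planned search of promoters was not run, and no sequences were used here. Alternatives were other constants, the ratios themselves, quantile normalization, no block, no dim probe sets, gene means, groups of pairs and each pair left out.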

Additional observations from a re-analysis of the deposited data

Results flagged for a closer look

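In the 56 groups of 6 arrays (28 genes in each zone), 6 had 1 array apart from the others, by a gap to the nearest array, as a share of the group's range on the log2 scale, above Dixon's critical value; chance gives about 1 in 20 groups. HZ-2 was low for MARS1 (share 0.783; signal 227, others 439 to 525) and for AARS1 (0.681; 646, others 1172 to 1546). RZ-2 was low for CARS1 (0.757; 45.7, others 181 to 270). HZ-5 was high for AARS2 (0.718; 224, others 21.8 to 47.7), HZ-3 was high for RARS2 (0.637; 402, others 250 to 297), and HZ-6 was low for WARS2 (0.683; 210, others 397 to 531). Without pair 2, MARS1 still passed, and so did CARS1.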

How the results depend on the processing

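The count of 5 synthetases that passed went to 2 (MARS1 and MARS2) with 1 added in place of 16, on the log2 of the deposited ratio and with no replicate block, to 2 (CARS1 and MARS2) in pairs 3 to 6, and to 0 in pairs 1 and 2, where limma gave 5 genes an unadjusted p under 0.05. Leaving out each pair gave 2 to 5. The other settings gave 4 to 6. Fewer samples enter the fits within groups of pairs; for the other settings the cause was not tested. Differences of the 5 genes kept their sign in every setting. The cytosolic median was -0.46 to -0.26 and the mitochondrial median -0.14 to 0.04, the latter above 0 without pair 4 only. Dim probe sets limit what can be seen of CARS1, AARS2 and LARS2, and the unit of signal rests on an assumed step.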

Other observations

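Lists further from tRNA charging are given beside the share of all named genes that passed, 3.56% as lower and 4.17% as higher. In tRNA export, end repair and modification, TSEN15, a subunit of the endonuclease that removes tRNA introns, rose by 0.70 ± 0.17 (SE, limma adjusted p = 0.0405) without overlap of the zones, at 1094 to 2289 in HZ and 774 to 1044 in RZ; the other 28 of 29 genes did not pass (median -0.06). It passed in 0 of the 6 limma fits that left out a pair (adjusted p of 0.0556 to 0.115). DTD1, which removes D-amino acids from wrongly charged tRNAs, rose by 0.68 ± 0.15 (SE, adjusted p = 0.0325) in 6 of 6 pairs, the 1 of 7 synthetase-related genes outside the listed ones to pass; among fits that left out a pair it passed only without pair 1. None of 16 RNA polymerase III genes passed in limma (2 with an unadjusted p under 0.05, median -0.05). Of 20 mTORC1 pathway genes, LAMTOR1, which anchors the pathway to lysosomes, rose by 0.76 ± 0.14 (SE, adjusted p = 0.0173) and SESN2, also in the ATF4 list, fell; 18 did not pass (median 0.07). LAMTOR1 did not pass without pair 1, 4 or 5, SESN2 passed in all 6 fits that left out a pair, and neither of these 2 genes passed without the pair as a block.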
